A study of Homo sapiens with 7 samples.

Results

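FOXA1 is a gene of the luminal prostate lineage, and transcription of NDRG1 is raised by androgen. This section covers the reporter constructs built from 3 regions at the loci of both genes in the human genome. Constructs were taken by the region given in their names, as 2 regions at FOXA1 and 1 at NDRG1. They number 17 of 1383, of which 10 are mutant constructs of 1025 and 7 are wild-type constructs of 358. FOXA1 has 7 of them and NDRG1 10.

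FOXA1 is a forkhead pioneer factor: it opens compacted chromatin at enhancers and so gives the androgen receptor access to its binding sites in prostate luminal cells. NDRG1 is a cytoplasmic protein named for its repression by N-myc. Its transcription is raised by androgen and by hypoxia, and loss of NDRG1 has been tied to the spread of prostate tumours. A reporter assay takes such stretches of DNA out of their chromosomal setting and asks only how much transcription each one drives.

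The study used a lentiviral massively parallel reporter assay (lentiMPRA), in which each candidate sequence and a barcode that identifies it are integrated into the genome of the host cell, and RNA barcode reads are set against genomic DNA (gDNA) barcode reads. The host was C4-2B, an established human prostate cancer epithelial line of the LNCaP lineage, grown in medium with serum and with no further treatment named in the labels. The libraries were 3 of the RNA fraction and 3 of the gDNA fraction, taken 48 hours after transduction, and 1 that links barcodes to candidate sequences. One of the authors' deposited tables sets mutant sequence against wild-type sequence, and the other sets wild-type against scrambled sequence.

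For each construct a table holds 1 estimate, read here as a log odds ratio (natural log) of RNA relative to gDNA. A positive mutant estimate then means more RNA per gDNA for mutant than for wild-type sequence. Errors after the ± sign are standard errors implied by the estimate and its z value, and intervals are 95% intervals from that error. Calls are those with an adjusted p of the authors under 0.05. The tables combine the libraries, so the read depth behind a construct is unknown and no spread between libraries can be given. Constructs are named for the site of the tested mutation, and sites are numbered here from the lower to the higher coordinate within a region.

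The first FOXA1 region lies wholly inside the gene (hg38 chr14:37589985-37591363, 1379 bp). FOXA1 spans positions 37589552 to 37595249 on the minus strand, so this region begins 3886 bp downstream of the gene's start and stops 433 bp short of its 3′ end. It is called the gene-body region below. The second begins 1 base further on and runs over the 3′ end of FOXA1, with 432 bp inside the gene and 958 bp beyond it (chr14:37588594-37589983, 1390 bp). It is called the gene-end region, and both of its tested sites lie outside the gene. The nearest other protein-coding gene is TTC6, 4266 bp from the gene-body region. The NDRG1 region is 1470 bp long and lies inside the gene (chr8:133252343-133253812), 15168 bp from one end of NDRG1 and 43440 bp from the other. The gene table used gives no exons, so whether a region is exonic, intronic or untranslated was not resolved. All 3 regions are longer than the median of the 380 regions tested, 946 bp.

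The tested mutations differ in kind between the genes. At FOXA1, 4 of 5 are insertions or deletions. In the gene-body region site 1 is a deletion of 15 bases, of which 13 are A or T, site 2 is a deletion of 2 bases, both A or T, and site 3 is an insertion of 30 bases, of which 21 are A or T. They fall in the first, the third and the fourth of 4 equal parts of the region. The gene-end region has a G-to-A substitution at site 1 and a deletion of 1 base at site 2, 324 bp apart. All 5 NDRG1 mutations are substitutions, within 334 bp in the first 2 of 4 equal parts. They are G-to-A at site 1, T-to-C at site 2, C-to-G at site 3, C-to-G at site 4 and A-to-G at site 5. Sites 2 and 3 are 5 bp apart, while the other neighbours are 57, 80 and 192 bp apart.

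The first comparison asked how much reporter RNA the wild-type sequences drove relative to scrambled sequence. Wild-type NDRG1 sequence drove less than scrambled sequence at 4 of its 5 sites and was not called higher at any, and wild-type FOXA1 sequence drove more at 1 of its 2 sites. In the authors' deposited table, 5 of the 7 wild-type constructs were called, beside 62.3% of all 358. By direction 4 were lower, beside 28.2% of all, and 1 was higher, beside 34.1%. The median estimate of the 7 was -0.29, against 0.01 over the whole of the authors' deposited table.

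At NDRG1 the wild-type estimates against scrambled sequence are given here in the order of the sites. At site 1 the authors' deposited table gave -0.09 ± 0.06, which was not called (interval -0.21 to 0.02, adjusted p = 0.158). At site 2 the estimate in the authors' deposited table was -0.37 ± 0.04, which is 1.45-fold lower odds (adjusted p = 1.28e-16). Of the 5, site 3 had the lowest value by the authors' deposited table, namely -0.74 ± 0.08 with odds 2.10-fold lower (adjusted p = 2.62e-19), and its z value ranks 16 among 358 by size. The estimate at site 4 was close to that at site 2. By the authors' deposited table it was -0.38 ± 0.05, which is 1.46-fold lower odds (adjusted p = 6.46e-14). Site 5 was nearer to scrambled sequence, where the authors' deposited table gave -0.19 ± 0.08, which is 1.21-fold lower odds (adjusted p = 0.0361). All 5 NDRG1 estimates were below 0, with intervals that reach above 0 at site 1 alone.

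The differences between NDRG1 sites were tested directly, by a two-sided normal test on both of the authors' estimates and their errors, with adjustment over all 837 pairs of wild-type constructs that share a region. Of the 10 NDRG1 pairs, 6 differed at an adjusted p under 0.05, beside 58.9% of all pairs. The share is thus near that of all pairs and does not set NDRG1 apart. Site 3 differed from each of the other 4, so it enters 4 of these 6 pairs. It was below its neighbour at site 2 by a difference of -0.37 ± 0.09 computed from the authors' deposited table, although their sites are 5 bp apart (adjusted p = 0.000118). Site 4 was above site 3 by 0.36 ± 0.09 when the authors' estimates were subtracted (adjusted p = 0.000317). Sites 2 and 4 were each below site 1 on the authors' estimates, by differences of -0.28 ± 0.07 and -0.29 ± 0.08 (adjusted p = 0.000382 and 0.000403). Sites 4 and 2 were separated by -0.01 ± 0.06, with an interval of -0.14 to 0.11. Whether all sites were set against the same scrambled sequence is not given in the sources used here. These differences compare wild-type levels only if they were. In order from lowest to highest the NDRG1 estimates ran site 3, site 4, site 2, site 5 and site 1. Neighbours in that order after site 3 were not shown to differ on the authors' estimates (adjusted p = 0.893 for sites 4 and 2, 0.0848 for sites 2 and 5, and 0.425 for sites 5 and 1).

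The 5 bp between NDRG1 sites 2 and 3 can be set beside the rest of the table. Among all 44 pairs of wild-type constructs whose sites are 1 to 10 bp apart, 23 differed (52.3%), and the median size of their difference was 0.41, against 0.46 for all pairs. The table also holds 3 pairs of wild-type constructs named for one and the same site, none at FOXA1 or NDRG1, and all 3 differed. The placing of a construct around its site is not given in the sources used here, so how much sequence neighbouring constructs share is unknown.

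At FOXA1 the wild-type sequence was measured at sites 2 and 3 of the gene-body region. Site 2 drove more RNA than scrambled sequence, since the authors' deposited table gave 0.44 ± 0.08 or 1.56-fold higher odds (interval 1.34- to 1.82-fold, adjusted p = 1.21e-07). Its estimate ranks 75 from the highest among 358. The interval, 0.29 to 0.60, lies above those of all 5 NDRG1 constructs, which compares wild-type levels only if the scrambled sequence was the same. For site 3 the authors' deposited table gave -0.29 ± 0.34, which was not called (interval -0.96 to 0.38, adjusted p = 0.469). Its error was larger than that of 89.4% of the wild-type constructs. On the authors' estimates site 3 was below site 2 by -0.73 ± 0.35 (interval -1.42 to -0.04), which did not pass after adjustment (adjusted p = 0.0624).

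The second comparison asked whether each mutation changed activity relative to wild-type sequence. Both FOXA1 gene-body mutations with calls lowered it, the gene-end substitution raised it, and both NDRG1 mutations with calls raised it. In the authors' deposited table, 5 of the 10 mutants were called, beside 56.6% of all 1025. By direction 3 were higher, beside 29.5% of all, and 2 were lower, beside 27.1%. The shares are thus near those of the whole table. The median size of the 5 FOXA1 estimates was 0.80 in the authors' deposited table and that of the 5 NDRG1 estimates 0.13, against 0.31 over all mutants. In general, an estimate with a larger error tends to be larger in size. The errors were 0.11 to 0.70 for FOXA1 mutants and 0.05 to 0.08 for NDRG1 mutants. The kinds of mutation also differ, so these medians do not show that effects are larger at FOXA1.

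In the FOXA1 gene-body region the estimates became more negative from site 1 to site 3. The mutations at these sites differ in kind and length, so an effect of position cannot be told apart from these. The 15-base deletion at site 1 had an estimate of -0.05 ± 0.32 by the authors' deposited table, which was not called (adjusted p = 0.910). Its interval ran between 1.99-fold lower and 1.79-fold higher odds, so a change within those bounds was not excluded by the model's error. The 2-base deletion at site 2 lowered activity, with -0.80 ± 0.11 or 2.23-fold lower odds by the authors' deposited table (interval 1.80- to 2.76-fold, adjusted p = 3.12e-12). By size of z it ranks 61 among 1025, and by estimate 95 from the lowest. The 30-base insertion at site 3 lowered activity too, and for it the authors' deposited table gave -1.89 ± 0.35 or 6.60-fold lower odds (interval 3.31- to 13.2-fold, adjusted p = 5.48e-07). By estimate it ranks 23 from the lowest among all 1025 mutants, and 2 from the lowest among the 49 insertions. By size of z it ranks 157 among all mutants and 8 among the insertions. Its error is larger than that of 91.3% of mutants.

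All 3 FOXA1 gene-body pairs differed after adjustment over the 1879 mutant pairs that share a region, of which 59.2% differed. By the authors' estimates site 3 was below site 2 by -1.08 ± 0.37 (adjusted p = 0.00705) and below site 1 by -1.83 ± 0.48 (adjusted p = 0.000382). The authors' estimates put site 2 below site 1 by -0.75 ± 0.34, close to the threshold (adjusted p = 0.0487). Among all 146 insertion and deletion mutants, 57.5% were called in the authors' deposited table and 30.1% were called lower, and of the 11 that change 10 or more bases, 6 were called, 4 of them lower.

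Beyond the 3′ end of FOXA1 the mutations pointed in opposite directions. The G-to-A substitution at site 1 of the gene-end region raised activity, with 0.66 ± 0.18 or 1.93-fold higher odds by the authors' deposited table (interval 1.36- to 2.74-fold, adjusted p = 0.000649). The 1-base deletion at site 2 had -1.35 ± 0.70 by the authors' deposited table, which was not called (interval -2.72 to 0.03, adjusted p = 0.0887). Its estimate is 3.84-fold lower, with an error larger than that of 97.8% of mutants. The authors' estimates put site 2 below site 1 by -2.00 ± 0.72 (adjusted p = 0.0115). No wild-type estimate against scrambled sequence was available for this region, so the wild-type level at these sites is not known here.

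At NDRG1 the mutant estimates were small and measured with small errors. The G-to-A change at site 1 stood at 0.01 ± 0.06 in the authors' deposited table (interval -0.10 to 0.13, adjusted p = 0.885). The T-to-C change at site 2 stood at 0.05 ± 0.05 in the authors' deposited table (interval -0.04 to 0.14, adjusted p = 0.315). At these sites the bounds keep any change to at most 1.14- and 1.15-fold higher odds by the model's error. Both C-to-G changes raised activity, and for site 3 the authors' deposited table gave 0.31 ± 0.06 or 1.37-fold higher odds (interval 1.22- to 1.53-fold, adjusted p = 4.72e-07). For the C-to-G change at site 4 it was 0.34 ± 0.06 or 1.40-fold by the authors' deposited table (interval 1.25- to 1.56-fold, adjusted p = 2.3e-08). The A-to-G change at site 5 was the only NDRG1 mutant with an estimate below 0, and the -0.13 ± 0.08 of the authors' deposited table was not called (interval -0.28 to 0.02, adjusted p = 0.151).

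The NDRG1 mutants fell into a raised set, sites 3 and 4, and the other 3 sites. All 6 pairs that cross between these sets differed, and none of the 4 pairs within them passed the test. This makes 6 of 10 pairs, which is near the 59.2% of all. With 50% of the smaller squared error taken as shared, the pair of sites 5 and 2 within the second set also differed, with site 5 below site 2 by -0.18 on the authors' estimates (adjusted p = 0.0303, against 0.0713 with independent errors). On the authors' estimates site 4 was above site 3 by 0.02 ± 0.08, with an interval of -0.14 to 0.18 (adjusted p = 0.834). The authors' estimates put site 3 above site 2, 5 bp away, by 0.26 ± 0.07 or 1.30-fold (adjusted p = 0.00119). Of all 167 mutant pairs with sites 1 to 10 bp apart, 95 differed (56.9%), and the median size of their difference was 0.48. The authors' estimates also put site 5 below site 4 by -0.46 ± 0.10 and below site 3 by -0.44 ± 0.10 (adjusted p = 5.64e-06 and 1.99e-05). The sets were made from these estimates and are a description.

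Both tables use wild-type sequence, so an error in the wild-type reads of a site would move its estimates in opposite directions. In the sum of the estimates of a site the wild-type term drops out, which leaves the mutant against scrambled sequence, if the same wild-type reads serve both tables. At FOXA1 site 2 the 2-base deletion then stood at -0.36 ± 0.13 against scrambled sequence and the wild type at 0.44 ± 0.08, on either side of scrambled sequence. At FOXA1 site 3 the 30-base insertion stood at -2.18 ± 0.49 and the wild type at -0.29 ± 0.34. At NDRG1 site 3 the mutant stood at -0.43 ± 0.10 and the wild type at -0.74 ± 0.08. At NDRG1 site 4 the mutant stood at -0.05 ± 0.07, near scrambled sequence, and the wild type at -0.38 ± 0.05. The NDRG1 mutants at sites 1, 2 and 5 stood at -0.08 ± 0.08, -0.32 ± 0.06 and -0.32 ± 0.11, so all 5 sums at NDRG1 were below 0. All wild-type values here are those of the authors' deposited table, and no test was made on the sums. The errors of the sums were computed as if both estimates were independent. Shared wild-type reads enter the estimates with opposite sign, so under the premise of the sums the sharing alone would make these errors too large. They still rest on the model's errors, so they do not bound the true uncertainty.

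The errors of the estimates differed between the genes. All 10 NDRG1 constructs had errors below the median of their table, between 0.04 and 0.08, where the medians are 0.12 for mutants and 0.11 for wild-type constructs. Of the 7 FOXA1 constructs, 2 had errors below the median, those of site 2 in the gene-body region. The other 5 had errors of 0.18 to 0.70. A missed call at FOXA1 thus leaves a wider range of possible effects than one at NDRG1.

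Of the list of 28 androgen receptor, FOXA1 partner and prostate lineage genes, EP300 was the only one besides FOXA1 and NDRG1 with a tested region. EP300 is a histone acetyltransferase that serves as a coactivator of the androgen receptor, and the region lies 2062 bp from the gene (chr22:41087514-41090530). Of its 9 mutants, 2 were called higher (29.5% of all mutants) and 4 lower (27.1% of all) in the authors' deposited table, between -0.26 ± 0.07 and 0.33 ± 0.09 (adjusted p = 0.000763 and 0.000665). The 9 EP300 wild-type constructs gave 6 higher calls (34.1% of all wild-type constructs) and 1 lower call (28.2% of all) against scrambled sequence in the authors' deposited table, between -0.23 ± 0.08 and 0.57 ± 0.07 (adjusted p = 0.0121 and 1.42e-14).

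All calls rest on the error of the authors' model. The z values of the authors' deposited tables had a robust SD of 3.92 for mutants and 4.12 for wild-type constructs. A standard normal has a unit spread. With z divided by the robust SD of its table, none of the 10 calls at FOXA1 and NDRG1 was kept. The robust SD takes in any real effects as well as error, so this scaling cannot decide whether a call is sound. Bonferroni adjustment ended those of the FOXA1 gene-end substitution and of the NDRG1 wild type at site 5. Of the differences between sites of a region, 0 of 16 were kept with errors scaled in the same way, and Bonferroni adjustment over the pairs kept 5, all at NDRG1. Over the whole tables the scaling kept 0 of 1112 mutant and 4 of 493 wild-type differences. Bonferroni adjustment kept 564 and 267 of them.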

How the data were processed

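Per the labels' protocols, gDNA and RNA were extracted together 48 hours after C4-2B cells were transduced. The submitters' processing notes name Bowtie2 and hg38 but not what each was used for. The analysis began from 2 deposited tables of comparisons. Per the file headers, the authors fitted a logit model, whose estimate is a natural log of an odds ratio. The deposited z value is a score, beside which the authors give a p-value and a q-value. Both were recomputed here from z, p as a two-sided normal p and q by Benjamini-Hochberg adjustment over the table, and were equal to those deposited. The direction of an estimate was read from the names of the tables. The sources used here do not give barcode filters, construct length and placing, or the scrambled sequence. Depth is unknown and replicates are combined.

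A standard error is the estimate over z, and a fold exponentiates the size of an estimate. Pairs of constructs of a region were compared by a two-sided normal test of their difference, in the whole of each table, with Benjamini-Hochberg adjustment over all its pairs, and the procedure was tested on simulated data (Python 3.11.15, scipy 1.17.1). Starts were raised by 1 to count from 1. Gene positions are those of GRCh38.p14, the same build, and FOXA1's strand that of its RefSeq promoter entry. Every construct of the 3 regions is named. The members, the gene list and the tests were chosen with earlier results of these data known. No exact position of a mutation and no allele sequence is printed. Alternatives were Bonferroni adjustment, a threshold of 0.01, errors scaled by the robust SD of z, leaving out estimates beyond 10 in size, and, for pairs, 50% of the smaller squared error taken as shared.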

Additional observations from a re-analysis of the deposited data

How the results depend on the processing

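The alternatives change errors, adjustment and thresholds, not the estimates. With errors scaled by the robust SD of z, 0 of the 5 mutant and 0 of the 5 wild-type calls were kept, and 0 of the 10 mutant and 0 of the 6 wild-type pairs still differed. At an unadjusted p under 0.05 the counts of called constructs were 5 and 5 as well. With Bonferroni adjustment over the pairs, 2 mutant and 3 wild-type pairs at these genes differed, beside 564 of 1879 and 267 of 837 over all. The mutant pairs were NDRG1 sites 3 and 5, and 4 and 5, while none at FOXA1 was kept. The wild-type pairs were NDRG1 site 3 with sites 1, 2 and 5. Bonferroni adjustment over the table left 4 mutant and 4 wild-type calls, ending the call at site 1 of the FOXA1 gene-end region and that of the NDRG1 wild type at site 5. An adjusted p under 0.01 also ended that wild-type call, and those of the FOXA1 mutant pairs of gene-body sites 1 and 2 and of the gene-end sites. With a shared error, 11 mutant and 8 wild-type pairs differed, the added ones being NDRG1 mutant sites 2 and 5 and NDRG1 wild-type sites 2 and 5, and 4 and 5. Leaving out estimates beyond 10 in size changed no call at these genes. No paired analysis was possible because the tables carry no values per replicate, and for the same reason no replicate could be left out.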
